A study of Mus musculus with 5 samples.

Results

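Among sorted mouse lymphoid-primed multipotent progenitors (LMPP), a small set of cells carried RNA of Il7r, which encodes the interleukin-7 receptor alpha chain, or of Ebf1, which encodes the early B cell factor 1 transcription factor. A cell was placed in this set when its Il7r and Ebf1 counts summed to at least 2 UMIs (unique molecular identifiers, each standing for 1 captured RNA molecule). The rule took in 361 of 8033 LMPP cells, or 4.49% (95% exact Clopper-Pearson interval 4.05 to 4.97), out of 42104 cells in the whole series. They are called Il7r/Ebf1-positive cells here, and are set against the LMPP cells with no UMI of either gene: 2156 Dntt-positive cells, with at least 1 UMI of Dntt, and 5116 Dntt-negative cells, with none. The remaining 400 LMPP cells held exactly 1 UMI of Il7r or Ebf1 and were left between the groups.

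Bone marrow came from wild-type Balb/C mice aged 8 to 12 weeks, with no treatment in the labels, and 5 libraries were made with the 10x Genomics 3' v3 droplet kit. Before the sort, marrow was enriched with beads for c-Kit, the stem cell factor receptor, and every gate took live c-Kit+ cells without the lineage antigens Ter-119, Gr-1, CD11b, B220, CD4 and CD8. The LMPP gate (1 library) asked for Sca-1+ CD34+ Flt3+ cells, the gate for CMP (common myeloid progenitors, 1 library) for Sca-1- CD34+ cells with low CD16/32, and the gate for GMP (granulocyte-monocyte progenitors, 3 libraries) for the same with high CD16/32. Cells bearing B220, a B lineage surface antigen, were thus removed, and no antibody to the interleukin-7 receptor is named. The sources used here do not give the number of animals behind the LMPP library. Since it is 1 library, differences between its groups of cells have no replicate check, no p-value is given, and intervals cover counting error only.

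Interleukin-7 signals through its receptor to the kinases Jak1 and Jak3 and on to Stat5, and in mice this signal is needed for B cell development in the marrow. Ebf1 works with Pax5 and the E proteins to switch on the genes of the pre-B cell receptor, a test receptor built from the immunoglobulin mu chain, the surrogate light chain proteins and the signalling chains Cd79a and Cd79b. Dntt (terminal deoxynucleotidyl transferase) adds bases at the joints of rearranging antigen receptor genes, Rag1 and Rag2 cut the DNA for that rearrangement, and Ly6d is a surface antigen that marks lymphoid progenitors turning towards the B lineage.

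The 4 genes that mark these cells lie on mm10, in the GENCODE M21 annotation, at chr15:9505788-9530176 on the minus strand (Il7r), chr11:44617317-45008091 on the plus strand (Ebf1), chr19:41029275-41059525 on the plus strand (Dntt) and chr15:74762056-74763620 on the minus strand (Ly6d). The values of Il7r and Ebf1 chose the cells and are given as a description. Il7r had a median of 3 UMIs per Il7r/Ebf1-positive cell and a maximum of 26, and 25 cells had none. Ebf1 had a median of 1 and a maximum of 86, and 126 cells had none. The sum of both had a median of 5 and a maximum of 94, so most of the cells lay above the threshold, although 87 sat exactly on it with 2 UMIs. The lymphoid label was checked on Dntt, which the rule did not use: 340 of the 361 cells (94.2%, 91.2 to 96.4) held a Dntt UMI, with a median of 15 and a maximum of 158. Ly6d was found in 148 cells (41.0%, 35.9 to 46.3), and 18 cells (4.99%, 2.98 to 7.77) held neither Dntt nor Ly6d.

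Depth differed between the groups. Il7r/Ebf1-positive cells had a median of 16046 UMIs and 4067 genes, against 12559.5 UMIs and 3739.5 genes in Dntt-positive cells and 8276.5 UMIs and 2780.5 genes in Dntt-negative cells. The groups summed to 6353470, 31265787 and 49350626 UMIs in that order, and mitochondrial genes took 1.30%, 1.35% and 1.46% of them. Levels are therefore given as counts per 1000000 UMIs of the group (CPM), and shares of cells with a UMI that are compared between the 3 groups also after each cell was thinned at random to 2000 UMIs, which left out 2, 6 and 52 shallower cells. In a sum over cells, more cells with an RNA and more of it per cell cannot be told apart, so the share of cells is given for the genes the results turn on. A score against simulated doublets called 34 of the 361 cells (9.42%, with a median of 31412 UMIs) and 516 of all 8033 LMPP cells (6.42%). The cells were kept. Of the 361 cells, 3 had a barcode that also occurs in another library.

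Promoters of Cd79a, Igll1 and Tmem108 are shown because these genes were named for their large differences below and because Ebf1 is known to bind a palindrome, spelled TCCC, any 2 bases, then GGGA. The sequences run from 250 bases before to 50 after the transcription start (RefSeq, GRCm38.p6, 5′ to 3′ on the gene's strand) and lie at chr7:24897247-24897546 (Cd79a, plus strand), chr16:16863936-16864235 (Igll1, minus strand) and chr9:103692758-103693057 (Tmem108, minus strand, 1 of its listed starts). Capitals mark that palindrome in the Tmem108 promoter and its shorter core, CCC, any 2 bases, then GGG, in that of Igll1. Neither motif occurs in that spelling in the promoter of Cd79a, which is printed in lower case throughout. Only exact matches were sought, so sites that depart from these letters were not counted, and their absence is not shown.
Cd79a: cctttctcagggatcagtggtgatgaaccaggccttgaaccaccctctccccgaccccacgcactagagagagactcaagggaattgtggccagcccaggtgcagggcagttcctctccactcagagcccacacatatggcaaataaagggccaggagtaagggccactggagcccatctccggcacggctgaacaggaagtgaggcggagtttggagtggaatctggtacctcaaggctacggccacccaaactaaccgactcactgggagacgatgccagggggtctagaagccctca
Igll1: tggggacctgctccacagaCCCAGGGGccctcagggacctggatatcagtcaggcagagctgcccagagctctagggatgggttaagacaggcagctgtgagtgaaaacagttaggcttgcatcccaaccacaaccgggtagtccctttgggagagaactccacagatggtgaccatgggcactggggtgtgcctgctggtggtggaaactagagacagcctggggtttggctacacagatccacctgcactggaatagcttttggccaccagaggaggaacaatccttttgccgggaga
Tmem108: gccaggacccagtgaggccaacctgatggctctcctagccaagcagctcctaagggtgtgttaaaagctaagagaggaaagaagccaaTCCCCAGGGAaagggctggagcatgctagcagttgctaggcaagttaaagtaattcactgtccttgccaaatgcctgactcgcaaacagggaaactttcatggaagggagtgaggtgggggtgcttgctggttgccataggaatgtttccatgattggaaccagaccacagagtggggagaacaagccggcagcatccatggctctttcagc
Both motifs read the same on both strands, and the longer contains the shorter. The longer motif occurred in 5 of 111 promoters (4.50%) that were listed for 79 of the 115 genes higher in Il7r/Ebf1-positive than in Dntt-positive cells, and in 297 of all 32851 promoters (0.904%). The core occurred in 18.9% of the promoters of the higher genes and in 13.7% of all promoters. The higher genes had to pass the level filter, whereas all promoters were not limited to such genes. A gene with several listed starts also counted more than once, at times with overlapping sequences. The shares are thus not of like sets, and whether they differ because of Ebf1 was not tested. The promoters of Vpreb1, Vpreb2, Vpreb3, Rag1, Rag2, Pax5, Blnk, Il7r, Ebf1 and Dntt held no exact match to either motif in this window. Neither did those of Arpp21, Cmah, Bfsp2 and Gimap7, which were also named for their large differences. The other listed start of Tmem108 held the core but not the longer motif. Among all these genes only Igll1 and Tmem108 held a match, so the promoters shown are not typical of them.

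The first comparison asked what sets Il7r/Ebf1-positive cells apart from LMPP cells with at least 1 Dntt UMI and from those with none. The Dntt-positive cells held a median of only 1 Dntt UMI and a maximum of 60. Against both groups, Rag1, Rag2 and Xrcc6 of the antigen receptor recombination list and 6 of 11 measured genes of the pre-B receptor and B cell list were higher in Il7r/Ebf1-positive cells. Of the genes measured in the stem cell, granulo-monocytic and megakaryocyte and erythroid lists, 5 of 7, 6 of 12 and 4 of 5 were lower. A gene was counted as higher or lower when the CPM of the groups, with 1 CPM added to each, differed at least 2-fold and their mean was at least 10 CPM. Against Dntt-positive cells, 115 of 8303 genes (1.39%) were higher and 142 (1.71%) lower, and against Dntt-negative cells 233 of 8280 (2.81%) were higher and 244 (2.95%) lower. Over all genes past the level filter the median log2 fold was -0.02 against Dntt-positive and 0.05 against Dntt-negative cells. The counts of higher genes include Il7r and Ebf1, which the comparison cells lacked by rule, and Dntt, which divided those cells. Against the 271 Dntt-positive cells with at least 5 Dntt UMIs fewer genes passed 2-fold, as given in the closing section. Since the cells were chosen on genes of the same library, all these counts describe the groups and test nothing.

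**Figure D1:**
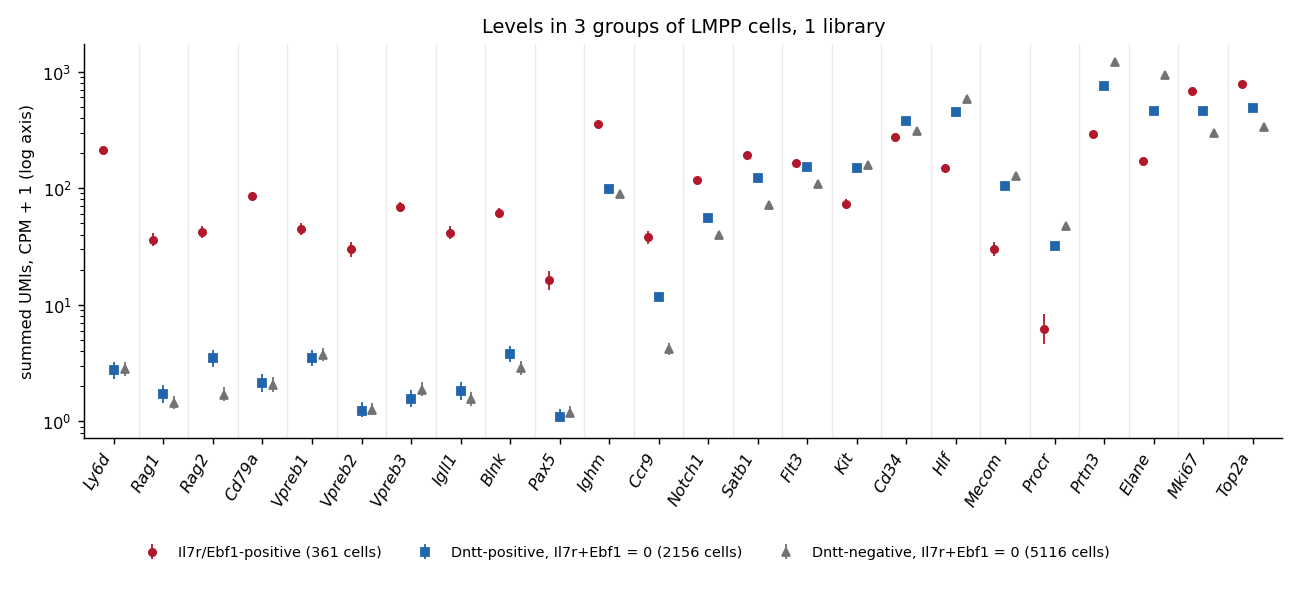
Levels of 24 genes, as summed UMIs in CPM plus 1 on a log axis, in Il7r/Ebf1-positive LMPP cells (circles), Dntt-positive cells (squares) and Dntt-negative cells (triangles), with exact 95% Poisson intervals as bars. Ly6d, Rag1, Cd79a, Vpreb2, Vpreb3, Igll1 and Pax5 lie at or below 1.8 CPM in the cells without Il7r or Ebf1 UMIs, whereas Flt3 and Cd34 differ little and Hlf, Mecom, Procr, Prtn3 and Elane lie lowest in Il7r/Ebf1-positive cells.

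Among genes of early lymphoid cells, Ly6d stood at 210 CPM (199 to 221) in Il7r/Ebf1-positive cells, against 1.73 CPM in Dntt-positive and 1.80 CPM in Dntt-negative cells. That is a ratio of 121 (92.5 to 162) over Dntt-positive cells. Dntt itself had 1491 CPM, against 190 CPM in the Dntt-positive cells that were chosen for holding it, a ratio of 7.85 (7.60 to 8.11). After thinning to 2000 UMIs, 75.5% (70.7 to 79.9) of Il7r/Ebf1-positive cells still held a Dntt UMI, against 30.7% (28.8 to 32.7) of Dntt-positive cells. For comparison, 4.26% of 47 LMPP cells with at least 20 UMIs of the neutrophil granule genes Ngp and Camp (median depth 10609 UMIs) held Dntt after thinning, and in the 3 GMP libraries 0.0790%, 0.145% and 0.0773% of cells did. For Ly6d the thinned shares were 18.1% (14.3 to 22.5) in Il7r/Ebf1-positive cells, 0.372% in Dntt-positive cells and 0.336% in Dntt-negative cells. The 47 cells with neutrophil RNA held Ly6d in 2.13%.

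All 9 other genes of the lymphoid-primed list passed the level filter. Against Dntt-positive cells 3 were higher and none lower (median log2 fold 0.63), and against Dntt-negative cells 4 were higher and none lower (median 0.90). Ccr9, a chemokine receptor that guides progenitors to the thymus, had 37.0 CPM in Il7r/Ebf1-positive cells, against 10.7 CPM in Dntt-positive and 3.16 CPM in Dntt-negative cells. Notch1, the receptor that directs T cell fate, had 116, 54.9 and 38.3 CPM in the same order. Both genes were thus stepped, with Dntt-positive cells between the other groups. Satb1, a chromatin organiser of lymphoid progenitors, had 191 CPM in Il7r/Ebf1-positive cells, against 121 and 70.8 CPM, which passed 2-fold only against Dntt-negative cells. Flt3, the receptor used in the gate, had 162 CPM, against 152 and 108 CPM, and Mef2c, Ikzf1, Bcl11a and Cd27 also lay within 2-fold of both comparison groups.

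Of 14 genes of antigen receptor recombination other than Dntt, 12 passed the filter, with 3 higher and none lower against Dntt-positive cells (median log2 fold 0.21) and 4 higher against Dntt-negative cells (median 0.43). Rag1 had 35.1 CPM (30.6 to 40.0) in Il7r/Ebf1-positive cells, against 0.704 CPM in Dntt-positive and 0.426 CPM in Dntt-negative cells. Rag2 had 40.9 CPM (36.1 to 46.2), against 2.46 and 0.689 CPM, and was found in 144 of the 361 cells (39.9%), against 3.15% of Dntt-positive and 0.625% of Dntt-negative cells. Thinned to 2000 UMIs, the shares with Rag2 were 6.41% (4.10 to 9.46), 0.605% and 0.118%. Both recombinase genes were thus at or under 2.46 CPM in the comparison cells. Xrcc6, which encodes the Ku70 end-binding protein, had 87.7 CPM, against 41.9 and 37.4 CPM. The other joining factors, such as Prkdc (20.5, 21.1 and 16.8 CPM) and Xrcc5 (31.2, 33.7 and 28.4 CPM), differed little.

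Of 17 genes of the pre-B receptor and B cell list, 11 passed the filter, and the same count of 6 was higher, with none lower, against each comparison group. Their median log2 fold over all 17 genes was 2.02 against Dntt-positive and 1.97 against Dntt-negative cells. Cd79a, the signalling chain of the B cell receptor, had 84.4 CPM (77.4 to 91.8) in Il7r/Ebf1-positive cells, against 1.12 CPM in Dntt-positive and 1.05 CPM in Dntt-negative cells, a ratio of 75.4 (53.5 to 109) over the first. It was found in 92 of the 361 cells (25.5%), against 1.58% and 0.880% of the comparison cells, and after thinning in 11.7% (8.56 to 15.5), against 0.186% and 0.276%. The surrogate light chain genes Vpreb1, Vpreb2 and Igll1 had 43.6, 28.8 and 40.6 CPM in Il7r/Ebf1-positive cells, and between 0.224 and 2.74 CPM in both comparison groups. Vpreb3, which encodes a chaperone of the assembling receptor, had 68.3 CPM, against 0.544 CPM in Dntt-positive and 0.871 CPM in Dntt-negative cells. It came from 35 cells, of which the 5 highest held 45.4% of its UMIs, so that level belongs to few cells. Blnk, the adaptor that couples the receptor to its kinases, had 60.3 CPM, against 2.75 and 1.86 CPM, and was found in 34.6% of the Il7r/Ebf1-positive cells, against 3.53% and 1.76%. After thinning, Blnk was found in 10.3% (7.36 to 13.9), against 0.930% and 0.375%.

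By contrast, RNA of later B cell stages was scarce. Ms4a1, which encodes CD20, had 1 UMI in all 361 cells, and Cd22 had none, which allows up to 0.472 CPM. The kinase genes Syk and Btk and the second signalling chain Cd79b, at 73.8, 90.8 and 43.1 CPM, lay within 2-fold of both comparison groups. Ighm, the mu chain gene, had 355 CPM (340 to 370), against 97.6 CPM in Dntt-positive and 88.6 CPM in Dntt-negative cells, and was found in 90.9% of Il7r/Ebf1-positive cells, against 52.1% and 24.0%. After thinning, Ighm was found in 46.8% (41.5 to 52.1) of Il7r/Ebf1-positive cells, against 16.6% and 7.09%. In the Dntt-negative group, 1 cell held 55.7% of the Ighm UMIs and 94.4% of those of the light chain gene Igkc, which had 17.0 CPM in Il7r/Ebf1-positive cells, against 14.2 and 266 CPM.

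Among 12 regulators of the B lineage, 6 passed the filter and 1, Foxo1, was higher against each group. Foxo1, which drives transcription of the recombinase genes, had 25.2 CPM (21.4 to 29.4) in Il7r/Ebf1-positive cells, against 10.4 CPM in Dntt-positive and 10.7 CPM in Dntt-negative cells. Pax5, the factor that commits cells to the B lineage, had 15.3 CPM (12.4 to 18.6), against 0.0960 and 0.182 CPM, from 35 of the 361 cells (9.70%), against 3 of 2156 and 9 of 5116 cells. Thinning left Pax5 in 7 of 359 Il7r/Ebf1-positive cells, 0 of 2150 Dntt-positive and 2 of 5064 Dntt-negative cells. Its mean level was under the filter, and so were those of Lef1 (9.13, 0.0640 and 0.122 CPM), a factor that supports pro-B cell growth, and Pou2af1 (7.24, 0.128 and 0.284 CPM), a coactivator of immunoglobulin promoters. Regulators active across progenitors, such as Tcf3 (61.5, 53.9 and 44.7 CPM), Runx1 (87.2, 84.7 and 72.5 CPM) and Myb (308, 289 and 298 CPM), lay close together in the 3 groups.

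RNA levels of the receptor's own pathway lay close together. Of 15 genes of interleukin-7 signalling other than Il7r, 13 passed the filter against Dntt-positive cells and 14 against Dntt-negative cells, and none was past 2-fold in either direction (medians over those past the filter -0.08 and -0.09). Il2rg, the receptor's shared gamma chain, had 58.9 CPM (53.1 to 65.1) in Il7r/Ebf1-positive cells, against 62.3 and 64.0 CPM. The kinase gene Jak1 had 146 CPM, against 175 and 189 CPM, and Stat5b had 22.2 CPM, against 30.9 and 26.5 CPM. Cish and Socs2, which Stat5 is known to induce, had 15.3 and 18.1 CPM in Il7r/Ebf1-positive cells, 9.18 and 10.6 CPM in Dntt-positive cells and 11.7 and 16.7 CPM in Dntt-negative cells. Their differences from Dntt-positive cells were 0.68 and 0.72 on the log2 scale, under the threshold. Bcl2, a survival gene downstream of the receptor, had 86.4 CPM, against 74.0 and 51.5 CPM, and in the survival and death list the proapoptotic gene Bcl2l11 had 61.7 CPM, against 34.8 and 22.7 CPM.

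Several genes outside these lists were named by the size of their difference. Arpp21, which encodes a cAMP-regulated phosphoprotein, had 111 CPM (103 to 119) in Il7r/Ebf1-positive cells, against 7.13 CPM in Dntt-positive and 2.45 CPM in Dntt-negative cells. Cmah, a sialic acid hydroxylase gene, had 74.8 CPM, against 2.78 and 1.42 CPM, and Bfsp2, known as a lens filament gene, had 106 CPM, against 7.29 and 5.27 CPM. Tmem108, a membrane protein gene, had 33.7 CPM, against 2.40 and 0.993 CPM. Of 8 Gimap genes, small GTPases of lymphocyte survival, 5 passed the filter against Dntt-positive cells and 2 were higher: Gimap7 had 21.2 CPM, against 0.448 and 0.284 CPM, and Gimap9 had 70.4 CPM, against 30.5 and 28.6 CPM. Gimap7 was found in 74 of the 361 cells (20.5%), against 0.649% and 0.254% of the comparison cells, and after thinning in 14 of 359 cells, against 1 of 2150 and 4 of 5064. Among homing genes, 2 of 8 past the filter were higher against Dntt-positive cells, Ccr9 among them, and 3 of 8 against Dntt-negative cells, whereas Cxcr4, the receptor for marrow retention, had 18.7, 17.2 and 16.7 CPM.

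**Figure D2:**
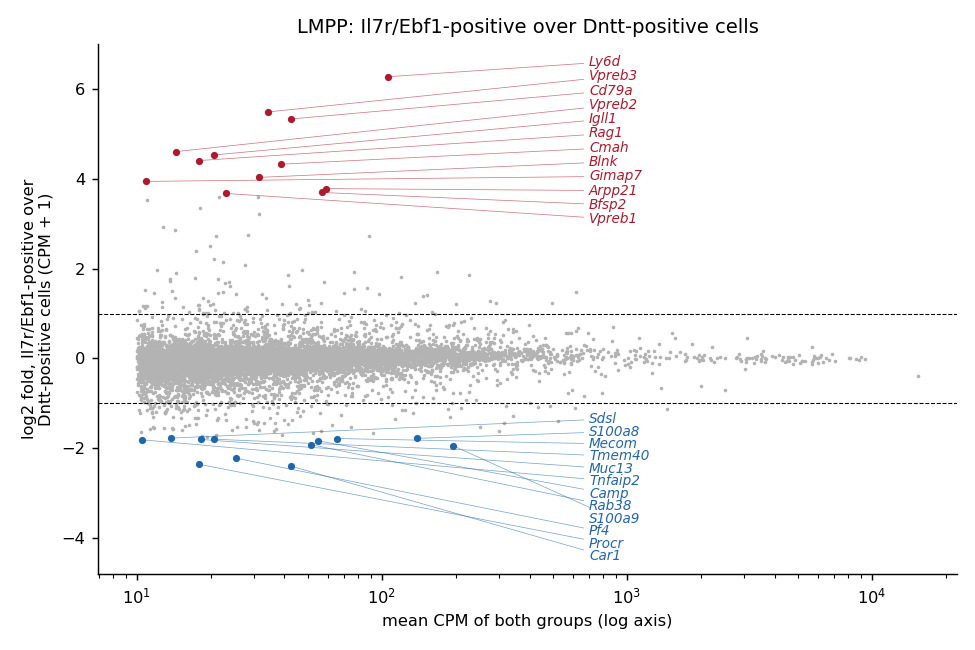
Each point is 1 of the genes past the level filter, with the mean CPM of both groups on a log axis and the log2 fold of Il7r/Ebf1-positive over Dntt-positive LMPP cells (1 CPM added to each). Il7r, Ebf1 and Dntt, which made the groups, are not drawn. Dashed lines mark 2-fold, coloured points are the 12 highest and 12 lowest genes under the naming rule, and the highest point is Ly6d at 6.27 and the lowest Car1 at -2.40.

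Markers of other lymphoid fates were mixed. Of 16 T lineage genes, 2 passed the filter and both were higher. Hes1, a Notch target, had 34.5 CPM, against 5.28 CPM in Dntt-positive and 5.09 CPM in Dntt-negative cells. Without thinning, Hes1 was found in 12.7% of Il7r/Ebf1-positive cells with Il7r without Ebf1. It was found in 38.6% of those with both genes and 28% of those with Ebf1 without Il7r. Lck, a lymphocyte kinase, had 37.6 CPM, against 13.3 and 7.52 CPM. The defining T cell genes Cd3e, Cd3g and Il2ra had no UMI in the Il7r/Ebf1-positive cells, and Bcl11b had 1, so the list's summed level of 117 CPM, against 37.1 and 31.6 CPM, rests on other members. Of 14 innate lymphoid and natural killer genes, 4 passed the filter against each group, and the list summed to 142 CPM, against 141 and 175 CPM. Id2, an inhibitor of E proteins, had 15.1 CPM, against 6.43 and 8.29 CPM, and was higher against Dntt-positive cells only. Rora, a nuclear receptor gene of innate lymphoid cells, was lower against both groups, with 7.24 CPM (5.30 to 9.66), against 16.2 CPM (14.8 to 17.7) in Dntt-positive cells and a level with the interval 18.8 to 21.3 CPM in Dntt-negative cells. Ncr1, Eomes and Tbx21 had none. Among 8 plasmacytoid dendritic cell genes, 6 passed and 2 were higher: Cox6a2, a mitochondrial subunit gene known to mark plasmacytoid cells, had 58.7 CPM, against 3.97 and 1.5 CPM, and Irf8, a dendritic and monocytic regulator, had 72.1 CPM, against 34.6 and 23.4 CPM. Siglech, the surface marker of plasmacytoid cells, had 4.25 CPM (2.80 to 6.18) from 17 of the 361 cells, against 0.128 and 0.101 CPM. What part cells of that type had in these values was not tested.

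Stem cell RNA was lower in Il7r/Ebf1-positive cells than in either comparison group. Of 11 listed genes, 7 passed the filter, and 5 of these, among them Hlf, Mecom, Procr and Gata2, were lower against each group and none higher, with median log2 folds over all 11 genes of -1.57 against Dntt-positive and -1.96 against Dntt-negative cells. Hlf, a stem cell transcription factor, had 147 CPM (138 to 157) in Il7r/Ebf1-positive cells, against 452 CPM in Dntt-positive and 586 CPM in Dntt-negative cells, and was still found in 62.9% of Il7r/Ebf1-positive cells, against 91.3% and 90.8%. After thinning, Hlf was found in 17.5% (13.8 to 21.9) of Il7r/Ebf1-positive cells, against 55.5% and 65.1%. Mecom, which maintains stem cells, had 29.1 CPM, against 103 and 126 CPM, and Procr, a surface marker of stem cells, had 5.19 CPM, against 30.7 and 46.4 CPM. Meis1 (139, 215 and 233 CPM) and Hoxa9 (141, 205 and 204 CPM), factors shared by many progenitors, stayed within 2-fold. Kit, whose protein was used in the sort, had 72.2 CPM (65.8 to 79.2), against 149 and 156 CPM. The other gate genes Cd34 (273, 377 and 308 CPM) and Ly6a, which encodes Sca-1 (13.9, 16.4 and 19.3 CPM), were within 2-fold.

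Granulo-monocytic RNA was lower as well. Of 16 listed genes, 12 passed the filter, with 6 lower and none higher against Dntt-positive cells (median log2 fold over all 16 of -0.94) and the same counts against Dntt-negative cells (median -1.01). Prtn3, the granule proteinase 3 gene, had 290 CPM (277 to 303) in Il7r/Ebf1-positive cells, against 757 CPM in Dntt-positive and 1200 CPM in Dntt-negative cells. Elane, neutrophil elastase, had 169 CPM, against 459 and 940 CPM, and 5 of the Il7r/Ebf1-positive cells held 57.2% of its UMIs. Most of that level thus came from few cells. The share of cells with Elane differed less than the level: it was 69.8%, against 64.1% and 52.8%, and after thinning 13.4% (10.0 to 17.3), against 16.5% (15.0 to 18.1) and 18.5% (17.5 to 19.6). Mpo, the myeloperoxidase gene, had 423 CPM, against 528 and 511 CPM, and after thinning was found in 41.5% (36.4 to 46.8) of Il7r/Ebf1-positive cells, against 39.8% and 27.6%. Csf1r, the monocyte growth factor receptor, was at 3.15, 3.58 and 2.45 CPM.

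Of 13 megakaryocyte and erythroid genes, 5 passed the filter and 4 were lower against each group. Pf4, platelet factor 4, had 8.34 CPM (6.25 to 10.9) in Il7r/Ebf1-positive cells, against 42.5 CPM in Dntt-positive and 65.7 CPM in Dntt-negative cells. Car1, a carbonic anhydrase gene of erythroid progenitors, had 12.9 CPM, against 72.2 and 54.9 CPM, although 1 cell held 37.8% of its UMIs in the set. Against Dntt-positive cells with at least 5 Dntt UMIs, of which there were 271, the log2 fold of Car1 was -1.10 rather than -2.40. The 6 listed basophil and mast cell genes summed to 9.76 CPM, against 21.3 and 57.4 CPM, with Gzmb and Fcer1a at 0 in the Il7r/Ebf1-positive cells.

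RNA of maturing neutrophils was lower in Il7r/Ebf1-positive cells and, in the comparison groups, concentrated in few cells. All 7 listed genes together came to 191 CPM in Il7r/Ebf1-positive cells, against 690 CPM in Dntt-positive and 3406 CPM in Dntt-negative cells. S100a8, an alarmin of neutrophils, had 62.5 CPM in Il7r/Ebf1-positive cells, spread over 59.3% of them with no cell above 11 UMIs, against 217 and 1214 CPM. In Dntt-positive cells 1 cell held 19.5% of its UMIs, and up to 3220 UMIs were found in 1 Dntt-negative cell. Ngp, a granule protein gene, had 17.8, 60.5 and 385 CPM, with 44.6% of the Dntt-positive cells' UMIs in 1 cell. What part free RNA had in these low, widely spread counts was not tested. Of 10 genes of classical dendritic cells and MHC class II, 4 passed the filter and none was past 2-fold. Cd74, the invariant chain, had 55.6 CPM in Il7r/Ebf1-positive cells, of which 1 cell held 54.4%, against 42.8 and 78.1 CPM.

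Genes of mitosis differed more from Dntt-negative than from Dntt-positive cells in the number past 2-fold, and few genes of DNA replication passed it. All 20 genes of the G2 and M phase list had a positive log2 fold against Dntt-positive cells, with a median of 0.77, and 2 of them (Ccnb1 and Ube2c) passed 2-fold. Against Dntt-negative cells 19 of the 20 passed 2-fold (median 1.28). Mki67, the proliferation antigen Ki-67, had 682 CPM (662 to 703) in Il7r/Ebf1-positive cells, against 461 CPM in Dntt-positive and 299 CPM in Dntt-negative cells. Ube2c, a ubiquitin-conjugating enzyme gene of mitotic exit, had 408 CPM, against 173 and 125 CPM. The 18 S phase genes had a median log2 fold of 0.04 against Dntt-positive cells, with none past 2-fold, and of 0.33 against Dntt-negative cells, with 2 higher. Those were Rrm2, a ribonucleotide reductase subunit (81.7, 59.4 and 40.3 CPM), and Uhrf1, which maintains DNA methylation (122, 86.9 and 59.0 CPM). In sum the S phase list had 2647 CPM, against 2554 and 2060 CPM. After thinning to 2000 UMIs, 32.9% (28.0 to 38.0) of Il7r/Ebf1-positive cells held at least 10 UMIs of the G2 and M phase list, against 16.3% (14.8 to 18.0) of Dntt-positive and 9.36% (8.57 to 10.2) of Dntt-negative cells. For the S phase list these shares were 11.7% (8.56 to 15.5), 10.7% (9.47 to 12.1) and 4.96% (4.38 to 5.59). Depth before thinning moved with these shares, as the medians above show, and its part in the difference was not tested.

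Immediate early genes, a class switched on by stimulation or stress, were lower in sum, at 5659 CPM in Il7r/Ebf1-positive cells, against 9276 CPM in Dntt-positive and 10457 CPM in Dntt-negative cells. Of 13 listed, 10 passed the filter, with 2 lower (Egr1 and Dusp1) against Dntt-positive cells (median over all 13 of -0.70) and 3 against Dntt-negative cells (median -0.87). Egr1, a zinc finger factor, had 314 CPM, against 657 and 823 CPM. Of 8 interferon-response genes past the filter, none was beyond 2-fold against Dntt-positive cells and 1 was higher against Dntt-negative cells: Ifi27l2a, an interferon-induced gene, had 94.1 CPM, against 52.3 and 36.3 CPM.

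The Il7r/Ebf1-positive cells differed among themselves along the number of Il7r and Ebf1 UMIs. LMPP cells were divided into classes of 0 (7272 cells), 1 (400), 2 to 3 (130), 4 to 7 (100) and 8 or more UMIs (131). Dntt had 73.6, 195, 737, 1354 and 2099 CPM in these classes, from low to high, and Ly6d had 1.77, 7.77, 86.4, 209 and 295 CPM. Early lymphoid RNA thus climbed from the second class on, with its sharpest step across the threshold of 2 UMIs. Pre-B receptor RNA was found mainly in the class of 8 or more UMIs. Cd79a had 1.08, 0.449, 4.77, 17.3 and 182 CPM, and Igll1 had 0.645, 0.748, 0, 3.45 and 92.3 CPM. Vpreb3 had 5 UMIs in the class of 4 to 7 and 429 in the class of 8 or more, and Pax5 had 1 and 96. The B lineage genes of the comparison above therefore came mainly from 131 of the 361 cells. Rag1 lay between these patterns, at 0.533, 2.24, 6.36, 16.7 and 66.7 CPM. Hes1, of the T lineage list, had 5.16, 4.93, 14.8, 29.4 and 51.3 CPM, and was thus highest where Cd79a and Pax5 were.

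**Figure D3:**
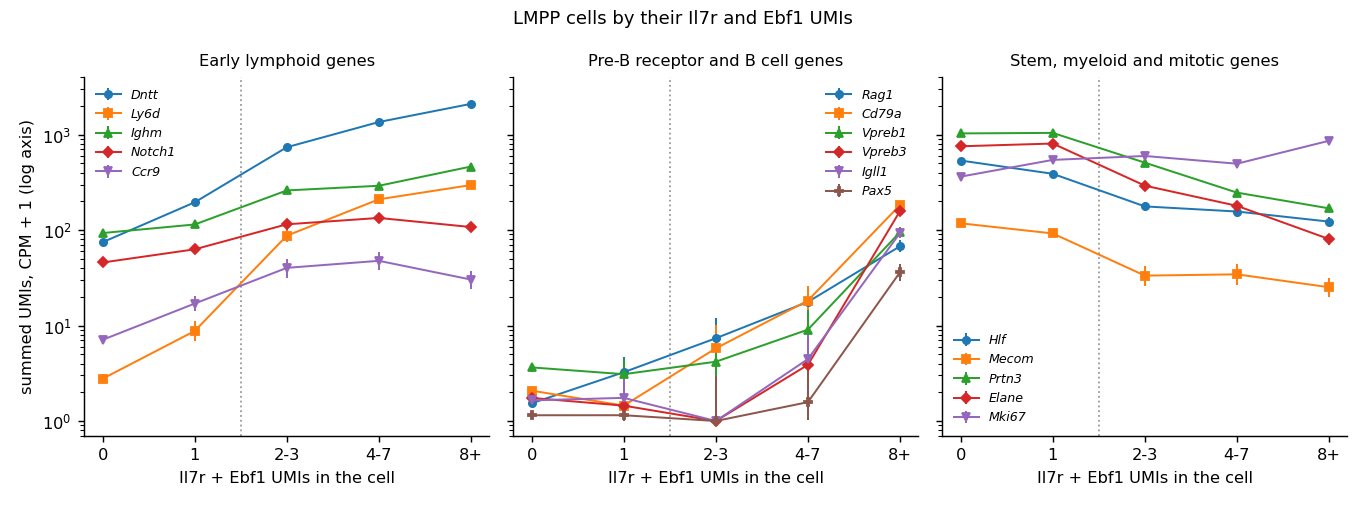
Summed UMIs, in CPM plus 1 on a log axis, of LMPP cells grouped by their Il7r plus Ebf1 UMIs, with exact 95% Poisson intervals and a dotted line at the threshold of 2 UMIs. Dntt and Ly6d are already high in the class of 2 to 3 UMIs, Cd79a, Vpreb3, Igll1 and Pax5 are high in the class of 8 or more, and Hlf, Mecom, Prtn3 and Elane are lower from 2 UMIs on.

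Stem and myeloid RNA went the other way along the same classes. Hlf had 534, 388, 176, 155 and 122 CPM from low to high, and Elane had 754, 805, 291, 178 and 79.5 CPM. Mki67 had 362, 542, 596, 495 and 861 CPM, so mitotic RNA was highest in the last class, where 42.3% (33.7 to 51.3) of cells held 10 UMIs of the G2 and M phase list after thinning. Ccr9 had 6.09, 16, 39.2, 46.6 and 29.3 CPM and Irf8 had 27.8, 36.9, 98.6, 74.8 and 52.0 CPM, both highest in a middle class. The depth of the cells moved with the classes, with medians of 9272.5, 14477.5, 12797.5, 16239.5 and 20013 UMIs. Thinned to 2000 UMIs, Dntt was found in 9.15%, 22.2%, 64.6%, 73.7% and 87.7% of cells and Cd79a in 0.25%, 0%, 3.08%, 4.04% and 26.2%, in the same order as without thinning from 2 UMIs on.

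Just inside the threshold, 87 cells held exactly 2 UMIs, of which 82.8% held Dntt and 14.9% Ly6d. Just outside it, the 400 cells with 1 UMI held Dntt in 50.8% and Ly6d in 4.50%. Of the cells with 2 UMIs, 14 (16.1%, 9.09 to 25.5) had neither gene, against none of the 43 cells with 3 UMIs, which allows up to 8.22%. The cells at the threshold thus lacked both genes more often than those with 3 UMIs. These shares are without thinning, and the part of depth in them was not tested.

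The cells also differed by which of the rule's genes they held. Of the 361 cells, 126 held Il7r without Ebf1, 210 held both and 25 held Ebf1 without Il7r. Dntt was found in 92.9%, 94.8% and 96.0% of these classes. At least 1 of the pre-B receptor genes Cd79a, Vpreb1, Vpreb2, Vpreb3 and Igll1 was found in 9 of 126 cells with Il7r without Ebf1 (7.14%, 3.32 to 13.1), in 105 of 210 cells with both (50%, 43.0 to 57.0) and in 15 of 25 cells with Ebf1 without Il7r (60%, 38.7 to 78.9). At least 3 of those genes were found in 0, 33 and 5 cells. Cells with Il7r without Ebf1 had no UMI of Igll1 or Pax5, which allows up to 1.57 CPM, and 1.57 CPM of Cd79a. In cells with both genes, Igll1 had 59.0 CPM (51.8 to 67.0), Pax5 20.3 CPM and Cd79a 108 CPM, and in cells with Ebf1 without Il7r Cd79a had 237 CPM, 45.7% of it from 1 cell. Pre-B receptor RNA was thus seen mainly in cells with an Ebf1 UMI. These classes rest on the same UMIs as the sums above. At least 1 of those genes was found in 5.75% of cells with a sum of 2 UMIs and in 64.9% of cells with 8 or more. The part of the sum in the difference between the classes was not tested.

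**Figure D4:**
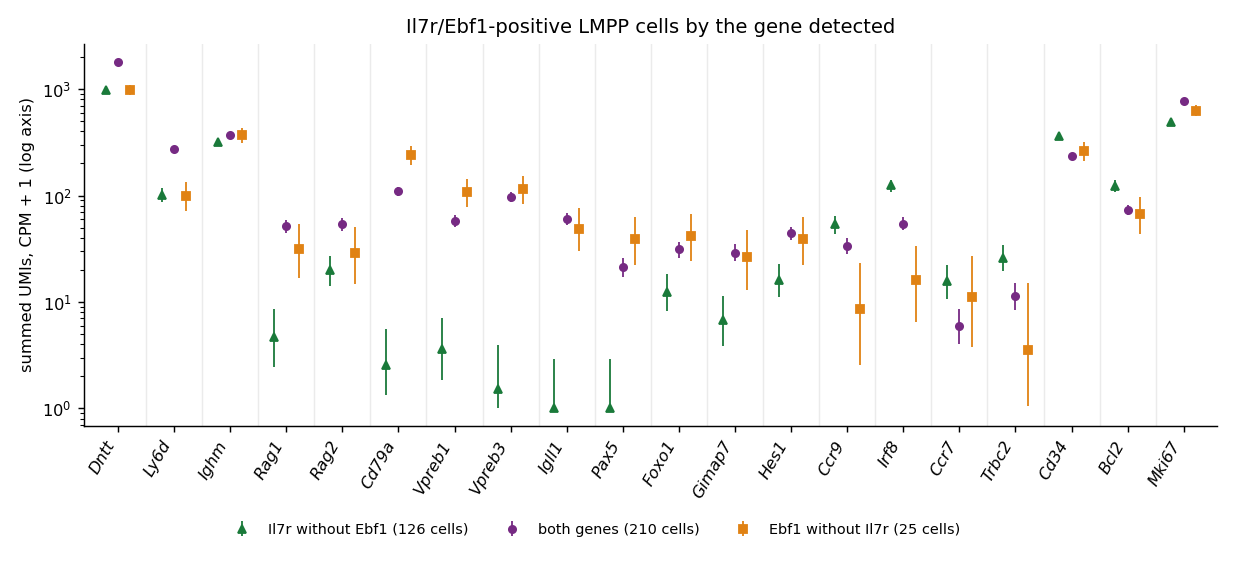
Summed UMIs, in CPM plus 1 on a log axis, of the Il7r/Ebf1-positive LMPP cells by the gene they held: Il7r without Ebf1 (triangles), both (circles) and Ebf1 without Il7r (squares), with exact 95% Poisson intervals. Cells without Ebf1 lie near the axis floor for Cd79a, Vpreb3, Igll1 and Pax5 and above the other classes for Ccr9, Irf8, Trbc2, Cd34 and Bcl2.

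Cells with Il7r without Ebf1 held more of several other genes. Irf8 had 123 CPM in them, against 53.6 CPM in cells with both genes and 15.1 CPM in cells with Ebf1 without Il7r. Ccr9 had 52.4, 32.6 and 7.56 CPM in the same order, and Cd34 had 361, 233 and 260 CPM. Trbc2, a T cell receptor constant gene whose RNA can be made before rearrangement, had 25.2, 10.4 and 2.52 CPM, although 5 cells held 75% of its UMIs in the first class. Tmem158, a membrane protein gene, had 62.4, 15.1 and 12.6 CPM from 34.1% of cells in that class. Ly6d had 100 CPM in cells with Il7r without Ebf1, 272 CPM in cells with both and 98.3 CPM in cells with Ebf1 without Il7r, and the Dntt levels were 985, 1779 and 981 CPM, so both were highest where both genes were found. Mki67 had 492, 777 and 628 CPM. Median depths were 13888.5, 16849.5 and 13161 UMIs, and the part of depth in these classes was not tested.

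The same rule was applied to the other libraries. It took in 397 of 7312 CMP cells (5.43%, 4.92 to 5.97) and 4 of 9123, 6 of 9799 and 5 of 7837 cells of GMP replicates 1, 2 and 3, or 0.0563% ± 0.0109 (SD, n = 3). The share in CMP was above that in LMPP, with intervals that overlap, and the share in every GMP library was below both. The median UMIs of the cells that met the rule in GMP were 2189.5, 8336.5 and 2376, against 11152, 13267 and 15464 over all cells of those libraries. Cells with exactly 1 UMI made up 4.98% of LMPP, 4.92% of CMP and 0.515%, 1.11% and 1.24% of the GMP libraries.

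The CMP cells resembled those of LMPP in what set them apart from Dntt-positive cells of their own library. In CMP, 125 genes (1.63% of 7671) were higher and 102 (1.33%) lower in this comparison. Of the genes higher in LMPP, 69 (60%) were also higher in CMP, which is 55.2% of the CMP list, and of those lower, 62 (43.7%) were also lower in CMP, which is 60.8% of the CMP list. The shared higher genes include Il7r and Ebf1, which the same rule set in both libraries, and Dntt, which divided the comparison cells. Cd79a had 92.2 CPM in the CMP cells, against 0.851 CPM in Dntt-positive CMP cells, and Rag1 had 29.6 CPM, against 0.511 CPM. Dntt had 1971 CPM, against 276 CPM, and Hlf had 16.4 CPM, against 72.0 CPM. Rora was the 1 nameable gene past 2-fold in opposite directions, with 7.24 CPM in Il7r/Ebf1-positive and 16.2 CPM in Dntt-positive LMPP cells, and 22.8 CPM in Il7r/Ebf1-positive and 6.67 CPM in Dntt-positive CMP cells. That difference was not tested.

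**Figure D5:**
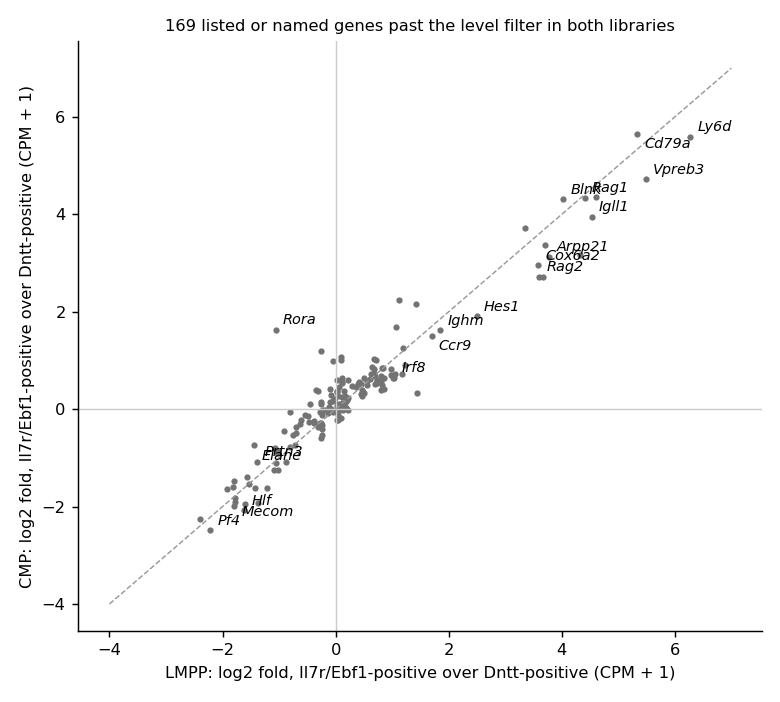
Log2 folds (1 CPM added) of 169 listed or named genes past the level filter in both libraries, in LMPP across and in CMP upwards, each as Il7r/Ebf1-positive over Dntt-positive cells of the same library. Il7r, Ebf1 and Dntt are not drawn. The dashed line marks equal folds, Ly6d lies at 6.27 in LMPP and 5.59 in CMP, Hlf at -1.61 and -2.07, and Rora at -1.06 and 1.63.

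Set directly against the CMP cells, the LMPP cells had 240 of 7954 genes higher (3.02%) and 66 lower (0.83%), with a median log2 fold of 0.08 over all genes. Scaling by a trimmed mean moved all folds by 0.17 on the log2 scale and changed the split to 121 higher and 114 lower, so the balance of directions depends on the scaling. Of the pre-B receptor and B cell list, 12 genes passed the filter, with none higher and 1, Blk, lower in the LMPP cells. Cd79a had 84.4 CPM in the LMPP and 92.2 CPM in the CMP cells, Igll1 40.6 and 25.9 CPM, and Pax5 15.3 and 12 CPM. Il7r had 231 CPM in the LMPP and 214 CPM in the CMP cells. Its levels say little about likeness, since the same rule chose both sets on Il7r and Ebf1. Rag2 had 40.9 CPM in the LMPP cells, against 18.8 CPM in the CMP cells, and Ly6d had 210 CPM, against 105 CPM, a log2 fold of 0.99 that is just under the threshold.

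Many of these genes also differed between other cells of the libraries. Of the 240 genes higher in the LMPP cells, 160 (66.7%) were also at least 2-fold higher in Dntt-positive LMPP than in Dntt-positive CMP cells, and of the 66 lower genes 34 (51.5%) were also lower there. Between those comparison cells, 4.88% of genes were higher and 1.05% lower. Hlf had 147 CPM in the LMPP cells, against 16.4 CPM in the CMP cells, and Bst2, an interferon-induced surface antigen, had 83.9 CPM, against 16.9 CPM. Cpa3, a mast cell protease gene, had 1.42 CPM, against 38.3 CPM, and Mpo had 423 CPM, against 1576 CPM. The neutrophil genes S100a8 and S100a9 had 62.5 and 80.0 CPM in the LMPP cells, against 0.491 and 1.47 CPM in the CMP cells, where all 7 genes of that list came to 4.09 CPM. Some T lineage genes were lower in the LMPP cells: Trbc1 had 5.51 CPM, against 42.7 CPM, 52.1% of it from 5 CMP cells, and Tcf7, which was under the filter, had 1.26 CPM, against 16.9 CPM. Library and cell type cannot be told apart here, since each has 1 library.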

How the data were processed

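Droplet single-cell RNA counts were analysed from 5 libraries: LMPP and CMP (1 each) and GMP (3). The deposited matrices hold whole UMI counts per gene and barcode, not normalized. The submitters' processing notes name Cell Ranger 3.1.0, Seurat 3.1.1 and mm10, whereas the matrix files name Cell Ranger 6.1.1, per the file headers. How barcodes were selected is not given in the sources used here. Barcodes with at least 500 genes, at least 1000 UMIs and at most 10% mitochondrial UMIs were kept. This removed 83 of 8116 LMPP barcodes, 77 of 7389 CMP barcodes and 387 of 9510, 194 of 9993 and 184 of 8021 GMP barcodes. Deposited totals were 93770259 UMIs in LMPP, 90067195 in CMP and 112327644, 137141095 and 127387528 in GMP.

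UMIs were summed over the cells of a group, scaled to CPM with exact 95% Poisson intervals, and compared as log2 folds with 1 CPM added, among genes with a mean of at least 10 CPM. A gene at 0 was given the limit of 3 counts. Cells are not replicates, so no test was run. Genes named were the 12 highest and 12 lowest per comparison (without Il7r, Ebf1, mitochondrial, ribosomal and model genes, and without Dntt where it made the groups) and genes of the pathway and cell type lists. The members and the lists were chosen with earlier results of these data known. Doublets were scored against simulated pairs at 0.8% per 1000 barcodes (30 components, 30 neighbours, 2000 genes), and called cells were kept. Coordinates are from GENCODE M21, in which all 55450 gene IDs were found, and promoters from RefSeq. Computations used Python 3.11.15, numpy 2.4.6, scipy 1.17.1 and pandas 2.3.3, and were tested on simulated data. The alternatives tried were other thresholds, filters, pseudocounts, scalings, thinning and doublet removal. Results for some genes of the lists are not reported here.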

Additional observations from a re-analysis of the deposited data

Results flagged for a closer look

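Rora, which encodes a nuclear receptor of innate lymphoid cells, lay past 2-fold in opposite directions in the libraries. In LMPP its log2 fold was -1.06, with 7.24 CPM in Il7r/Ebf1-positive cells and 16.2 CPM in Dntt-positive cells. In CMP the log2 fold was 1.63, with 22.8 CPM in Il7r/Ebf1-positive cells and 6.67 CPM in Dntt-positive cells. The CMP level came from 39 cells, and the 5 highest held 58.3% of its UMIs. With 1 library each, the difference between LMPP and CMP was not tested.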

How the results depend on the processing

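The share of LMPP cells taken in was 4.49%; it was 3.41% at 3 UMIs or more and 1.27% when the rule was applied to cells thinned to 2000 UMIs, which left 101 cells. Genes past 2-fold numbered 257 against Dntt-positive cells, 477 against Dntt-negative cells and 306 between LMPP and CMP cells. In that order, thinned cells gave 1403, 1542 and 1910, no level filter gave 786, 1269 and 1160, and a mean of at least 50 CPM gave 70, 146 and 63. Thinning also regrouped the cells, into 101 Il7r/Ebf1-positive, 837 Dntt-positive and 6846 Dntt-negative LMPP cells. With 101 cells of 2000 UMIs, genes of a few UMIs passed the level filter, and the part of counting error in those larger counts was not tested. Adding 5 CPM gave 164 against Dntt-positive cells and 161 between LMPP and CMP cells. Dntt-positive cells with at least 5 Dntt UMIs (271 cells) gave 141. The remaining counts, with 3 UMIs or more, all barcodes, doublet calls removed, means over cells, trimmed-mean scaling, equal thinning of the libraries, or without 49 cells rich in Ngp and Camp or Igkc, were within 1.5 times.

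Of 768 values of named genes, 606 moved by less than their counting interval, 159 moved by more and 3 turned round. The 3 were against Dntt-negative cells without those 49 cells, a choice made after seeing the data: Igkc 0.19, Ltf 0.38 and Jchain 0.72 on the log2 scale. Of the 49 cells, 44 were Dntt-negative, 5 Dntt-positive and none Il7r/Ebf1-positive, and they were left out for their own Igkc or Ngp and Camp UMIs, so the change in Igkc follows from that choice. No paired analysis was possible because each comparison lies within 1 library or between 2 libraries, with no test. Depth limits genes near 1 UMI, and free RNA was not removed.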
